A study of Equus caballus with 16 samples.

Results

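The libraries described here are the 8 adult tenocyte libraries, of 16 in the whole series, in which a hairpin against SCX was set against a non-target hairpin. Tenocytes are the resident fibroblast-like cells of tendon, and these came from horses of 2 to 10 years. Each of 4 adult lines (TB171012, TB180412, TB130911 and S) gave 1 library with the non-target hairpin (NT) and 1 with the SCX hairpin (shSCX), and the libraries were paired by the line named in the column. Both members of a pair were at the same passage, which was 5 for TB180412, 7 for TB171012 and 8 for TB130911 and S. The remaining 8 libraries came from 4 fetal lines (271, 316, 319 and 320 days of gestation; passages 7 and 8) with the same 2 hairpins. They are used below only where adult values are set beside fetal ones.

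All groups, controls included, were stable lines made with a TRC2-pLKO.1-puro plasmid and grown in medium with fetal bovine serum. The SCX hairpin was designed against the human gene, and the labels describe 1 hairpin sequence of each kind, so an effect of the target and an effect of that sequence cannot be told apart. Whether each line is a clone, and which tendon or how many horses the lines came from, the labels do not say. With the level of each line taken out by the pairing, the p-values judge the mean change from NT to shSCX against its variation between these 4 lines.

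Scleraxis, the protein of SCX, is a basic helix-loop-helix transcription factor that marks tendon progenitors and acts on genes of the collagenous tendon matrix such as those of type I collagen and tenomodulin. Mice without it form poorly developed force-transmitting tendons. A short hairpin RNA is cut by the cell into a small interfering RNA that directs the breakdown of matching messenger RNA, and a scrambled hairpin carries the vector and the processing load without an intended target. The series asks whether Scleraxis controls different genes in adult and in fetal tendon cells.

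The deposited tables name genes by horse Ensembl identifier only, and the RefSeq gene table at hand held 0 of these 21689 names. SCX itself, tenocyte markers and markers of other cell types were therefore not analysed here. The terms shSCX, NT and tenocyte are used as the labels give them, unchecked against expression. Pathway lists were not analysed for the same reason. Identifiers are given for 2 genes that rose and 2 that fell, and other genes are described by count, size, abundance and line. In bulk RNA, fewer cells of a type and less RNA per cell cannot be told apart.

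The 8 adult libraries held 20865437 to 26157162 estimated counts, and 12232 to 12655 genes per library reached 10 counts. The 10 most abundant genes took between 12.9% and 19.3% of a library. Of the 21689 genes, 12513 had enough counts to be tested.

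The genes called with the SCX hairpin in adult tenocytes were a small set with mostly moderate changes, and most of that set rose. At a Benjamini-Hochberg adjusted p under 0.05 (edgeR's quasi-likelihood test with the line as a block), 325 of 12513 genes were called, or 2.60%. Of these 242 rose (1.93% of tested genes) and 83 fell (0.663%). A typical rise was 0.87 on the log2 scale (quartiles 0.67 and 1.19), and a typical fall was -0.80 (quartiles -1.22 and -0.64). The median over all tested genes was -0.03. In simulated counts with 50 of 12387 genes changed at each size, the adult test recovered 4% of 1.5-fold and 70% of 2-fold changes. The simulated spread came from a fit without the hairpin, which counts hairpin effects as noise. These rates therefore need not hold for the data. A gene that was not called can still have changed, so the number of calls is not the number of genes that changed.

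Large changes were few. Of the called genes 18 changed 4-fold or more, 14 upward and 4 downward, while 158 changed between 1.5-fold and 2-fold and 50 by less than 1.5-fold. The excess of rises was seen at the adjusted threshold, whereas at unadjusted p under 0.05 there were 2189 genes (17.5% of those tested), of which 1140 rose and 1049 fell. With the DESeq2 Wald test 709 genes were called, and 62.9% of them rose, against 74.5% with edgeR. An unpaired fit, with no block for the line, called 1 gene.

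In counts of messenger RNA the set that rose weighed more than the set that fell. The 242 rising genes together took 1.79% ± 0.114 of an NT library and 3.09% ± 0.375 of a shSCX library (SD, n = 4). Per line their share went from 1.86% to 3.64% in TB171012, from 1.67% to 2.89% in TB180412, from 1.71% to 2.82% in TB130911 and from 1.91% to 3.00% in S. The share was thus higher in each shSCX library than in any NT library. The 83 falling genes took 0.679% ± 0.170 of NT and 0.361% ± 0.0890 of shSCX libraries (SD, n = 4), and here the groups overlapped, since the shSCX library of TB180412 (0.455%) lay above the NT library of TB171012 (0.441%). These shares restate, in counts, the contrast that chose the genes.

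Calls were spread over the whole range of abundance, and the share that rose grew with abundance. Among 1560 genes with a mean under 50 normalised counts (counts scaled for library size and composition) 0.513% were called, and among 642 genes with a mean of 5000 or more 4.05% were called. Rising genes went from 0.321% in the lowest tier through 1.63%, 2.05% and 2.56% to 3.27% in the highest. Falling genes made up 0.938% of the tier from 50 to 200 and between 0.588% and 0.779% of the 3 tiers above it. Precision moved with abundance too: the median standard error of a log2 fold change was 0.33 in the lowest tier, 0.12 from 200 to 1000 counts and 0.10 in the highest. The median size of a called change ran the other way, from 2.11 on the log2 scale under 50 counts (5 rises and 3 falls) to 0.75 at 5000 or more. A call needs a larger change where the error is larger, so these sizes partly follow from the threshold. The part of precision in the shares was not tested.

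**Figure D1:**
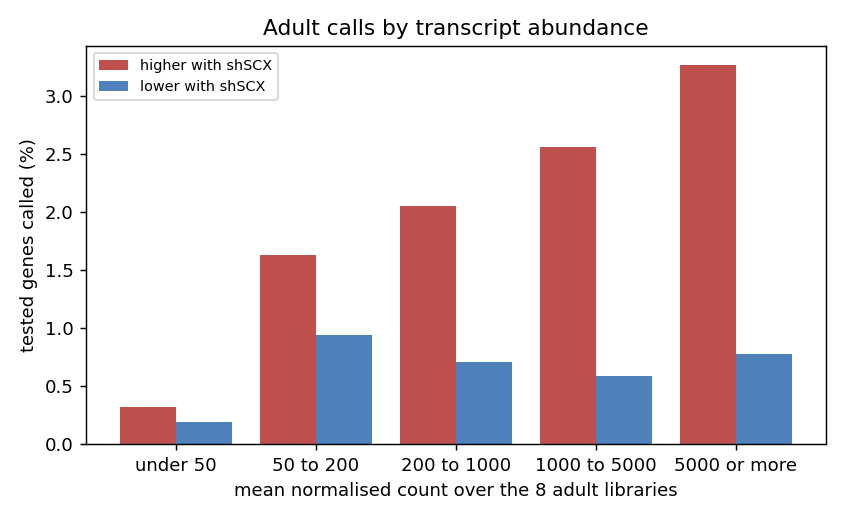
Percent of tested genes called in adult tenocytes (vertical axis) in 5 tiers of mean normalised count (horizontal axis), with genes higher in shSCX in red and genes lower in blue. Rises grew from 0.321% to 3.27% of a tier, while falls stayed under 1% in every tier.

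The 4 named genes are the strongest examples of a change in every line, not typical ones. They were taken from the called genes that moved 1 way in 4 of 4 lines and averaged 50 or more normalised counts under NT or shSCX (240 that rose, 80 that fell), as those whose least responsive line still changed most. The files do not say what each gene encodes. Over the 240 rising and 80 falling genes, the median absolute change of the least responsive line was 0.566 and 0.548 on the log2 scale.

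ENSECAG00000000750 had 135 normalised counts with NT and 6515 with shSCX in TB171012, 2.72 and 17.9 in TB180412, 18.8 and 163 in TB130911, and 30.4 and 638 in S. Levels differed widely between lines: the NT library of TB171012 stood above the shSCX library of TB180412, so the groups overlapped, yet each line rose and the order of the 4 lines was the same under both hairpins. Its log2 ratios were 5.58, 2.08, 2.99 and 4.31 in that order of lines, and the fitted log2 fold change was 4.67 (SE 0.42, edgeR adjusted p = 0.00496). Without TB171012 the fitted value was 3.68 (edgeR adjusted p = 0.0201).

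ENSECAG00000020749 was a low-abundance gene with an even response. Its normalised counts went from 15.6 to 86.6 in TB171012, from 17.2 to 63.7 in TB180412, from 15.0 to 60.6 in TB130911 and from 7.01 to 32.95 in S. No NT library reached the lowest shSCX library. The log2 ratios per line were 1.78 to 2.33 and the fitted log2 fold change was 2.13 (SE 0.25, edgeR adjusted p = 0.00841). The NT counts behind these values were 6 to 19, and the gene did not pass without TB171012 (log2 fold change 2.02, edgeR adjusted p = 0.0547) or without S (2.12, edgeR adjusted p = 0.0624).

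ENSECAG00000023039 fell from 406 to 116 normalised counts in TB171012, from 929.6 to 197 in TB180412, from 3872 to 225 in TB130911 and from 203 to 24.4 in S. The NT levels covered a wide range and the shSCX levels a narrower one at the top, and the order of the lines was the same under both hairpins. The groups overlapped, because the NT library of S lay below the shSCX library of TB130911. Log2 ratios ran from -4.09 in TB130911 to -1.79 in TB171012, with a fitted value of -2.79 (SE 0.37, edgeR adjusted p = 0.0119), and the call was lost without S (log2 fold change -2.73, edgeR adjusted p = 0.0713).

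ENSECAG00000012645 had nearly equal levels in the NT libraries, 78.1 in TB171012, 91.4 in TB180412, 108 in TB130911 and 88.8 in S. With shSCX these were 15.9, 29.9, 14.4 and 20.8 normalised counts, all below the lowest NT library. The fitted log2 fold change was -2.20 (SE 0.27, edgeR adjusted p = 0.00872). The call was lost without TB171012 (edgeR adjusted p = 0.0547) or S (0.0711), while the fitted value stayed between -2.43 and -1.98 with any 1 line left out.

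**Figure D2:**
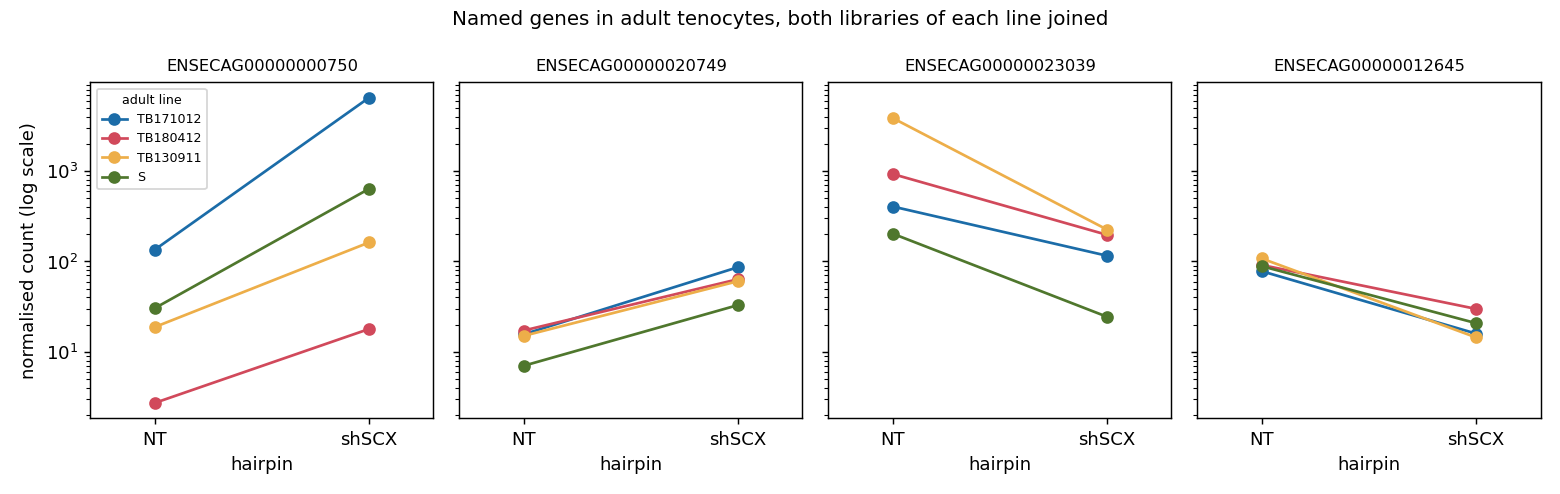
Normalised counts on a log axis for the 4 named genes, with the NT and shSCX library of each adult line joined and 1 colour per line. Every line moves the same way within a gene, which the choice of genes required, while the lines start from levels as far apart as 2.72 and 135 for ENSECAG00000000750 and as close as 78.1 and 108 for ENSECAG00000012645.

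Overlap of the 2 groups was the rule among called genes. Of the 242 that rose, 107 (44.2%) had all 4 shSCX libraries above all 4 NT libraries, against 214 of all 12513 tested genes (1.71%). Of the 83 that fell, 26 (31.3%) had all shSCX libraries below all NT libraries, against 102 of all tested genes (0.815%). The remaining calls rested on differences within lines. The called genes were chosen on the same contrast, so these shares describe them only.

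The line accounted for far more of the variation between adult libraries than the hairpin. For the median tested gene 82.7% of the variance of log2 CPM (counts scaled to a common library size) lay between lines, 4.24% between hairpins and 8.86% in what remained. Among rising calls the hairpin share was 57.1% and the line share 39.0%, and among falling calls 42.2% and 54.1%. Even here the line outweighed the hairpin in 46 of 83 falling genes, since the hairpin share was the larger in 37.

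Libraries of 1 line stayed close to each other. The root mean square difference of log2 CPM over tested genes was 0.455 in S, 0.512 in TB130911, 0.542 in TB171012 and 0.569 in TB180412 between the 2 hairpins of a line. Between NT libraries of different lines it was 0.605 to 0.950, and between shSCX libraries of different lines 0.697 to 1.16. The largest distance within a line was thus below the smallest between lines. TB180412 and TB130911 formed the closest pair of lines under both hairpins.

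In a principal component analysis of the adult libraries, component 4 was the one on which the hairpin moved every line by nearly the same amount. Components 1 and 2, with 44.2% and 27.6% of the variance, separated the lines. On component 4, with 8.66%, the shSCX library lay above its NT library by 36.2 in TB171012, 35.3 in TB180412, 33.95 in TB130911 and 32.5 in S. On component 3 (10.4%) the moves also had 1 sign, from -21.2 to -14.9. On component 5 (3.87%) the move was -41.7 in TB130911, against 17.0 in TB171012, 23.4 in TB180412 and -4.29 in S.

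**Figure D3:**
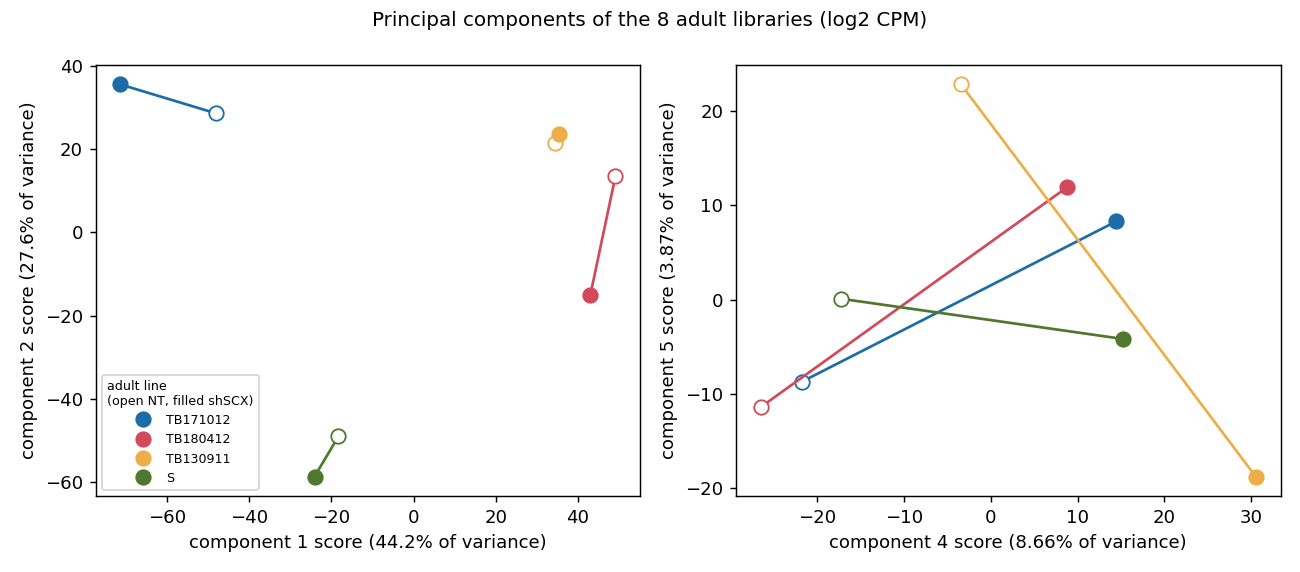
Scores of the 8 adult libraries on components 1 and 2 (left) and 4 and 5 (right) of log2 CPM, with open circles for NT, filled circles for shSCX and a line joining the pair. Lines sit apart on the left, whereas on the right all 4 pairs run the same way along component 4 and TB130911 runs against TB171012 and TB180412 along component 5.

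Counts of genes past 2-fold differed between the lines. At least 2-fold differences between the hairpins were seen for 762 genes in TB171012, 952 in TB180412, 699 in TB130911 and 542 in S, which is 4.33% to 7.61% of tested genes. Rises outnumbered falls in TB171012 (429 and 333), TB180412 (486 and 466) and S (299 and 243), but in TB130911 263 genes rose and 436 fell. A single pair of libraries per line gives no test of that difference.

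**Figure D4:**
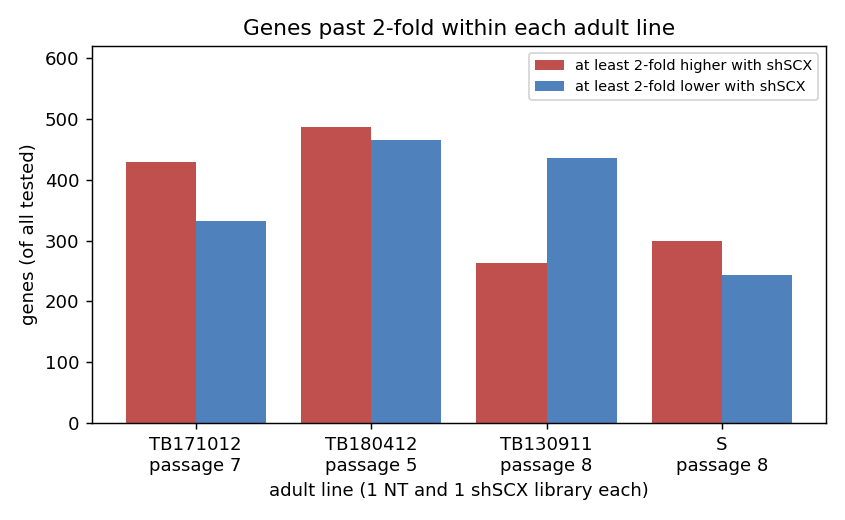
Number of tested genes at least 2-fold higher (red) or lower (blue) with shSCX within each adult line, each from 1 NT and 1 shSCX library. TB130911 is the line with more falls (436) than rises (263), and TB180412, at passage 5, has the most genes in both directions.

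Of the tested genes 696 were at least 2-fold higher in 1 line only and 931 at least 2-fold lower in 1 line only, whereas 41 were so higher in all 4 lines (0.328%) and 13 lower in all 4 (0.104%). Of these, 36 and 12 were called. Passing 2-fold in 1 line only does not show a response of that line alone: 45 rising and 15 falling calls of the 4-line test were past 2-fold in just 1 line. TB180412 supplied the most genes past 2-fold in a given direction in a single line, 279 higher and 352 lower, and S the fewest lower (98). TB130911 had 100 higher and 276 lower. Genes past 2-fold in exactly 1 line had a median mean of 100 normalised counts, those past it in 4 lines 168, and all tested genes 435. Each direction was counted apart, so the 149 genes at least 2-fold higher in a line and at least 2-fold lower in another were counted in both directions. Of these, 96 (64.4%) had a mean under 50 normalised counts, against 12.5% of all tested genes. The part of counting error was not tested.

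The lines differed in how much of the response they shared. Across the 12513 tested genes, which are not independent replicates, log2 ratios correlated between lines with Pearson r from 0.193 (TB180412 with TB130911) to 0.403 (TB180412 with S), and Spearman rho from 0.105 to 0.382 for the same pairs. Signs matched for 50.6% of genes between TB180412 and TB130911 and for 64.4% between TB180412 and S. TB180412 and TB130911, the closest lines by level, were thus the least alike in their change. Among genes past 2-fold in both lines of a pair the directions matched more often: 164 against 45 for TB180412 and TB130911, and 185 against 18 for TB171012 and S.

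Over the called genes as a set, the median change was similar in all 4 lines, while single genes such as ENSECAG00000000750 differed between lines. The median log2 ratio of the 242 rising genes was 0.89 in TB171012, 0.85 in TB180412, 0.86 in TB130911 and 0.80 in S. For the 83 falling genes it was -0.82, -0.81, -0.86 and -0.79. TB171012 was the line of largest change for 98 of the 325 genes, TB180412 for 93, TB130911 for 84 and S for 50. The line of smallest change was TB180412 for 98, S for 87, TB130911 for 80 and TB171012 for 60. TB130911, whose signs over all tested genes matched the other 3 lines least often (55.2%), did not stand apart in the medians of the called set. A paired test favours genes with even changes, so this likeness is partly built into the calls.

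A reading that does not reuse the line came from calling genes in 3 lines and looking at the line left out. Of 27 genes called without S, 27 moved the same way in S, with a median of 1.22 on the log2 scale. Of 91 genes called without TB171012 and measured there, 90 did so (median 1.05). In TB130911 it was 151 of 160 (median 0.88) and in TB180412 217 of 235 (median 0.74). Over all tested genes the sign of the other 3 lines was met in 69.3% for S, 62.8% for TB171012, 55.2% for TB130911 and 61.4% for TB180412. Falling genes were the less repeatable ones in TB180412, where 52 of 65 fell against 165 of 170 that rose, while in TB130911 32 of 32 fell and 119 of 128 rose.

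The number of calls depended strongly on single lines. There were 27 calls without S, 92 without TB171012, 160 without TB130911 and 237 without TB180412. Of the 325 genes, 27, 87, 137 and 195 kept their call in these fits. S, which had the fewest genes past 2-fold, was thus the line whose omission removed the most calls. In all 4 fits 21 genes kept their call, 20 that rose and 1 that fell, and 102 kept it in none. ENSECAG00000000750 was among the 21. The same 21 genes were also called by DESeq2 and by limma voom (0.168% of tested genes), and those tools shared 324 and 321 of the 325 calls.

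For most uncalled genes the data bound the size of a change. By limma voom, the 95% interval of the log2 fold change lay within 2-fold in both directions for 10521 of 12188 uncalled genes (86.3%) and within 1.5-fold for 7760 (63.7%). For uncalled genes with a mean of 1000 or more these shares were 97.6% and 87.4%. Under 50 counts they were 39.2% and 1.74%, so there a 2-fold change was not excluded for most genes. Silencing or onset of a gene was rare: 0 genes had at most 3 counts in every NT library and at least 10 in every shSCX library, and 1 gene had the reverse.

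The adult response was then set beside the fetal one, which came from other lines and shared no library with it. The same fit in fetal libraries called 1140 rising (9.18%) and 998 falling genes (8.04%). Of the adult calls, 198 that rose were also called as rising in fetal lines, which is 81.8% of the adult and 17.4% of the fetal list. For falls the number was 55, or 66.3% of the adult and 5.51% of the fetal list. All 239 adult rises measured in fetal lines had a positive fetal value, and 79 of 82 adult falls had a negative one. The share of all tested genes with the same sign at both stages is not given here, so these counts describe the called genes only.

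As a set, the adult calls had similar median sizes at the 2 stages. The median rise of these genes was 0.86 in adult and 0.99 in fetal lines, and 138 of 239 had the larger value in fetal lines. The median fall was -0.80 in adult and -0.72 in fetal lines, and 28 of 82 had the larger fall in fetal lines. Choosing genes on the adult values raises their adult size. With scaling by total counts the fetal medians were 1.09 and -0.62, a shift about as large as the differences between the stages, so no order of the stages is read from these medians. The difference between the medians was not tested.

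**Figure D5:**
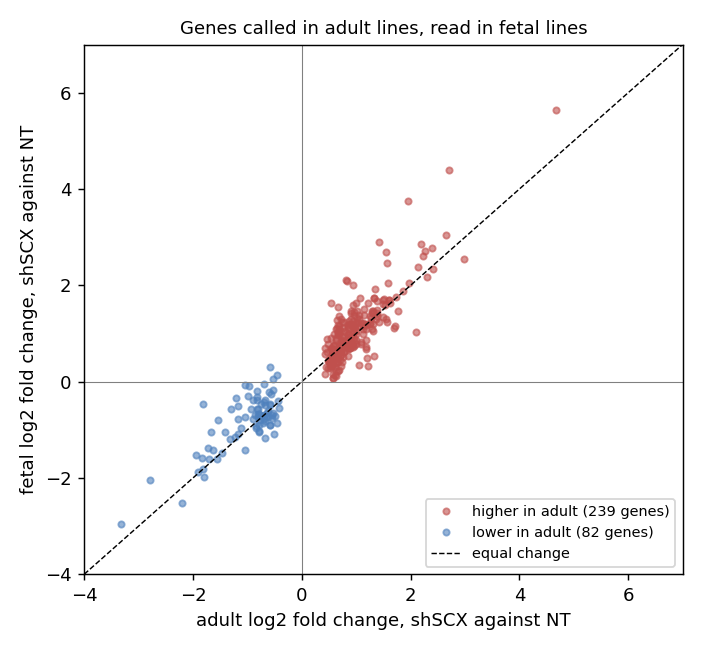
Log2 fold change of shSCX against NT in adult (horizontal axis) and fetal tenocytes (vertical axis) for the 321 genes called in adult lines and tested in both, with the dashed line at equal change. The 239 genes that rose in adult lines all lie above 0 on the fetal axis, and 3 of the 82 that fell lie above it.

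No gene passed the test of a different hairpin effect at the 2 stages. With edgeR 0 of 12888 genes (0%) had an adjusted p under 0.05 for the interaction, the lowest being 0.307, and 2006 (15.6%) had an unadjusted p under 0.05. limma voom also called 0 and the DESeq2 Wald test 38. In simulated counts the edgeR interaction test recovered 0% of 1.5-fold, 16% of 2-fold and 62% of 3-fold differences between stages. The spread was again simulated from a fit without the hairpin, so these rates need not hold for the data. A difference can be missed by the test, so the count of 0 does not show equal responses at the 2 stages. Of the 325 adult calls 60 (18.5%) had an unadjusted interaction p under 0.05, close to the share over all genes. Of the 41 adult rises and 27 adult falls not called in fetal lines, 13 and 11 were under that threshold. Both were larger shares than over all genes. Choosing genes called in adult but not in fetal lines favours low interaction p and smaller fetal values. The median values of these genes were 0.72 in adult and 0.40 in fetal lines for rises, and -0.83 and -0.38 for falls. These genes are thus not shown to respond in adult cells alone.

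None of the named genes passed the test of a difference between stages. ENSECAG00000000750 had a fetal log2 fold change of 5.64 (SE 0.47) and a difference, fetal minus adult, of 0.98 (SE 0.77, edgeR adjusted p = 0.515). For ENSECAG00000020749 the fetal value was 2.39 (SE 0.53), with line values from 1.07 in 319d and 320d to 4.33 in 316d, a wider range than in adult lines. ENSECAG00000023039 fell by 2.04 on the log2 scale in fetal lines (SE 0.50), with line ratios from -4.07 in 271d to -0.59 in 316d. It went from 8855 to 2470 normalised counts in 320d, where both values exceeded those of any adult library with the same hairpin, although adult and fetal counts were scaled separately. ENSECAG00000012645 had fetal line ratios of -2.91 to -1.84 and a difference of -0.35 (SE 0.39, edgeR adjusted p = 0.65). The intervals these errors give are wide, so equal responses are not shown.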

How the data were processed

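Messenger RNA of 16 tenocyte libraries was sequenced from a stranded mRNA kit as paired reads of 100 bases, per the labels' protocols. The values the authors deposited are estimated counts for each gene, in a table for adult and a table for fetal libraries. The submitters' processing notes name FastQC, Salmon and R 3.5.2. Neither genome build nor transcript set, nor how transcripts were summed, is given in the sources used here. Salmon shares reads between similar transcripts, so near-identical gene copies are uncertain. Intervals and errors cover these libraries only.

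Estimated counts were rounded to whole numbers. The column prefix TB without a number was assigned to line TB171012, the only adult title left. The test was edgeR 4.0.16 under R 4.3.3 (quasi-likelihood, TMM scaling, filterByExpr, Benjamini-Hochberg, threshold 0.05), with the line as a block within the 8 adult or the 8 fetal libraries, and for the interaction in all 16. The standard error is the log2 fold change divided by the square root of F. Normalised counts are TMM-scaled at the geometric mean effective library size of a stage, and log2 ratios used a prior count of 2. Deviations from group means correlated within adult pairs with r of 0.674 to 0.846, and each adult NT library correlated best with the shSCX library of its own line. No adult library was a copy of another with the same hairpin: chi-square per degree of freedom was 74.5 or more (genes with 20 or more counts in the pair).

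The comparison, the tiers and the tests were chosen with earlier results of these data known. Named genes had adjusted p under 0.05, 1 direction in 4 of 4 lines and an average of 50 or more normalised counts under NT or shSCX, ranked by the change of the line that moved least, 2 per direction. Single genes counted outside that rule are not named. Groups without overlap, genes past 2-fold per line and readings in the line left out are descriptions. DESeq2 1.42.0, limma 3.58.1 voom, other scalings and filters, all 16 libraries in 1 fit, no block and leaving out each line were alternatives. The code was tested on simulated data.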

Additional observations from a re-analysis of the deposited data

Results flagged for a closer look

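Outlying libraries were sought in 30 groups of 4 adult values by Dixon's test at the 95% level. Chance marks about 1 in 20 such groups, and 1 was marked. ENSECAG00000020749 was lowest in the NT library of line S, at -1.35 log2 CPM, where the other NT libraries had -0.43, -0.38 and -0.25. The shSCX library of S was also the lowest of its group, at 0.61 against 1.45 to 1.95, so the rise within S (1.96 on the log2 scale) lay inside the range of the other lines.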

How the results depend on the processing

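The adult count of 325 calls (242 up, 83 down) depended on the pairing and on single lines. With no replicate block it was 1 (1 up, 0 down). With the DESeq2 Wald test it was 709 (446 up, 263 down), and with all 16 libraries in one fit 508, of which 163 fell. With a line left out it ran from 27 (without S) to 237 (without TB180412), with 23 to 172 up and 4 to 65 down; these fits have fewer samples. The cause of the other shifts was not tested. Between 298 and 389 genes were called with limma voom, RLE scaling, scaling by total counts, no filter, or a filter of 1 CPM. The share of rises stayed at 70.7% or more in these 5. RLE scaling moved the median of all genes by -0.006 and scaling by total counts by 0.002 on the log2 scale. The interaction count of 0 became 38 with DESeq2 and was 0 in the other settings run. Over the 4 named genes, 48 values under alternatives had 0 reversals. In 39 the call was kept, and in 9 it was lost: without the block (edgeR adjusted p 0.115 to 1) or without TB171012 or S. The 4 lines and counts under 50 limit what could be detected.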
